A study of Mus musculus with 2 samples.

Results

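Snai1, Snai2, Twist1, Twist2, Zeb1, Zeb2, Prrx1 and Prrx2 were the 8 transcription factor genes of mesenchyme and of epithelial-mesenchymal transition (EMT) taken here. They were chosen by gene name, as every non-control probe carrying the symbol of 1 of these genes. This gave 11 probes of the 39429 on the array, and 8 of the 27601 gene names that its annotation holds. For each gene the probe that was brightest over the 4 channels was read as the main one. RNA came from ureters of newborn NMRI wildtype mice (P0) that were kept for 18 h as explants in medium with 10 µM cyclopamine or with the solvent DMF at 1:1000. Cyclopamine blocks Smoothened, the membrane protein through which Sonic hedgehog (SHH) signals from the urothelium reach the mesenchyme. Replicate 1 compared a female cyclopamine pool with a female control pool on 1 array, and replicate 2 did so for male pools with the dyes exchanged, so each group had 2 samples. Each pool held several ureters, and sex, dye orientation and replicate number cannot be told apart. The source name of the treated channel reads IWP-2, an inhibitor of WNT secretion, while the titles and treatment entries say cyclopamine. The study's methods dissolve cyclopamine in ethanol, whereas the labels name DMF for the control.

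SNAI1 and SNAI2 are zinc finger repressors that bind E-boxes in promoters of epithelial genes such as the E-cadherin gene Cdh1. TWIST1 and TWIST2 are basic helix-loop-helix (bHLH) factors of mesenchyme that pair with E proteins, and ZEB1 and ZEB2 are zinc finger and homeodomain repressors of epithelial genes. PRRX1 and PRRX2 are paired-type homeobox factors of mesenchyme and connective tissue. The family is best known from gastrulation, neural crest, fibrosis and tumours, where it opposes the epithelial state. In an organ such as the ureter such genes can be transcribed in the stroma without any such transition having to occur. RNA of whole ureters does not place them in a cell type.

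Treatment was checked on targets of SHH signaling, and both genes named for it were lower on both arrays. Ptch1, the SHH receptor and target, read a processed intensity (array units) of 785 in the female control against 360 with cyclopamine, and of 207 against 73.7 in the male pools. Gli1, the transcriptional effector and target, read 7771 against 2182 in the female and 1236 against 290 in the male pools. Their mean log2 ratios, cyclopamine over control, were -1.31 ± 0.25 for Ptch1 and -1.96 ± 0.18 for Gli1 (SD, n = 2; limma adjusted p 0.000248 and 1.76e-08). The spots well above background were 65.1% to 69.6% of the control channels and 64.8% to 70.0% of the cyclopamine channels. Replicate 1 was scanned brighter, with the upper quartile of control probes at 3338 against 628 in replicate 2, so levels are compared only within an array.

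Snai1 was the 1 factor of the 8 that fell by the test, by about the same factor on either array, while its paralog Snai2 lay above control on both. The other factors differed in direction between families and, for PRRX, within one. Twist1, Twist2 and Prrx2 lay below control on both arrays, Zeb1 and Zeb2 above it, and Prrx1 was split between the arrays. Limma called 1 of 8 factors lower, where it called 0.77% of the 25975 probes tested lower, and 0 of 8 higher, against 0.454% of probes. At an unadjusted limma p under 0.05 the count was 2 of 8, Snai1 and Twist2, both lower. Of the 25975 probes, 1161 were lower and 1279 higher at that limit. Lower on both arrays were 4 of 8 factors, beside 28.8% of the 18441 tested genes. Higher on both were 3 of 8, beside 29.1%, and opposite between the arrays was 1 of 8, beside 42.1%. The counts in the gene lists below are to be read beside these shares and the unadjusted counts of all probes. The median log2 ratio over the 8 was -0.09 on replicate 1 and -0.16 on replicate 2, where all tested genes had medians of 0.01 and -0.00. All 8 main probes were well above background in all 4 channels.

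**Figure D1:**
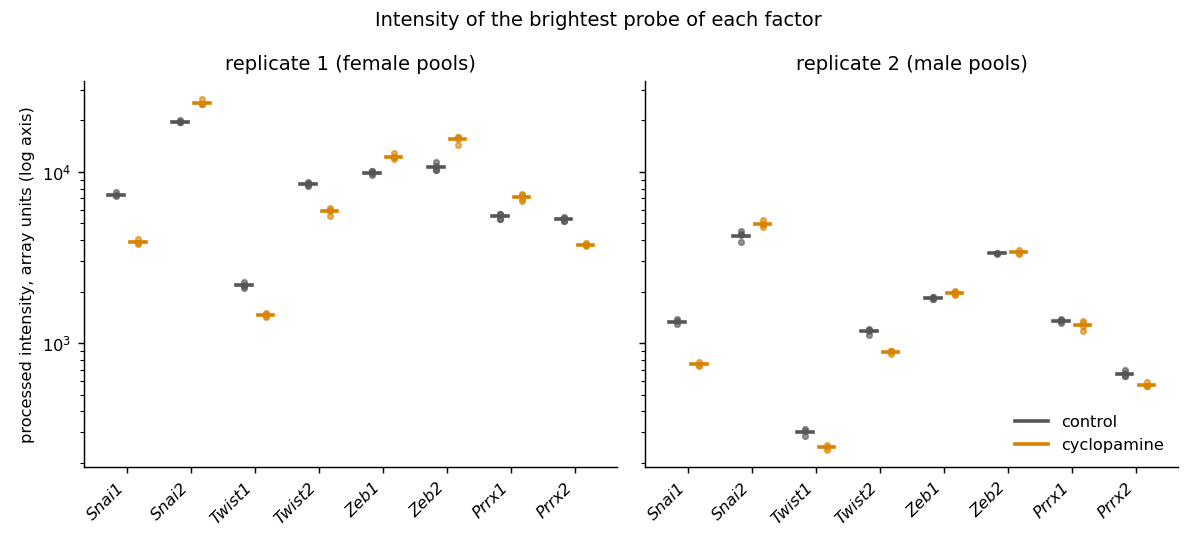
Processed intensity (log axis, array units) of the brightest probe of each factor in the control and cyclopamine pools of replicate 1 and replicate 2. Dots are spots without an outlier flag and bars their mean on the log scale. The spots of Snai1, Twist1, Twist2 and Prrx2 lie lower with cyclopamine on both arrays without overlap. Those of Snai2 and Zeb1 lie higher on both without overlap, whereas those of Prrx1 and Zeb2 overlap on replicate 2. Spot spread is technical, so a ratio as small as 0.09 (Zeb1, replicate 2) came without overlap. The share of all probes without overlap was not counted, so a lack of overlap is not read here as a result for any factor.

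Snai1, which encodes the repressor for which the family is named, was read by 1 probe, A_51_P165087, at mm9 chr2:167368073-167368132. Its intensity was 7376 in the female control and 3911 in the female cyclopamine pool. It was 1336 in the male control and 752 in the male cyclopamine pool. The cyclopamine pool was the lower of the pair on both arrays. The 3 unflagged spots of replicate 1 spanned 7212 to 7605 in the control and 3815 to 4055 with cyclopamine. Those of replicate 2 spanned 1299 to 1373 and 737 to 778. This spot spread is technical and does not measure the spread between pools. The log2 ratio was -0.92 on replicate 1 and -0.83 on replicate 2, a mean of -0.87 ± 0.06 (SD, n = 2), or 1.89-fold and 1.78-fold lower. The 95% interval of limma ran from -1.33 to -0.42, with an adjusted p of 0.0316. Of the 18441 tested genes, 146 had a lower mean ratio than Snai1. Snai1 also passed the filter that the study used, an intensity above 100 in the control and a change of at least 1.5-fold, required here on both arrays, which 1 of 8 factors and 0.649% of the 13088 genes bright enough passed as lower. No factor passed it as higher, beside 0.214% of genes. The study named Snai1 among its own candidates from these arrays, so the call is not independent evidence of it. With 1 residual degree of freedom, the test called more unchanged probes in simulated data than its limit allows. The spread of those data was set in advance and not taken from these arrays. The ratio kept its direction in all 10 alternative settings with both arrays, but the call was lost in 4 of them: normexp background correction (adjusted p = 0.0724), no filter on dim probes (0.0504), the series table values (0.511) and the 4 channels taken as separate samples (1.00).

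Snai2, the paralog with the same zinc finger type, had the opposite sign. Its probe A_51_P305547 at mm9 chr16:14709361-14709420 read 19629 in the female control and 25374 in the female cyclopamine pool. In the male pools it read 4248 and 4991. Cyclopamine was the brighter channel on both arrays. The log2 ratio was 0.37 and 0.23, a mean of 0.30 ± 0.10 (SD, n = 2) with an interval of -0.15 to 0.75 and an adjusted p of 0.713, so the difference did not pass the test. Snai1 minus Snai2 was -1.29 on replicate 1 and -1.06 on replicate 2, a mean difference of log2 ratios of -1.17 ± 0.16 (SD, n = 2), which was not tested. The third family member, Snai3, was dim, at 48.0 and 45.8 in the female and 8.06 and 11.1 in the male pools.

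Both TWIST genes lay below control, by a similar amount on each array, but neither passed the adjusted limit. Twist1, a bHLH factor needed in cranial and limb mesenchyme, read 2180 in the female control and 1458 in the female cyclopamine pool. In the male pools its probe A_52_P20906 (mm9 chr12:34644411-34644470) read 303 and 246. The step was wider in the female pools, with log2 ratios of -0.58 and -0.30. Twist2, known for its part in dermal mesenchyme, read 8513 and 5884 in the female pools and 1173 and 889 in the male pools (probe A_51_P165504, mm9 chr1:93744519-93744577). Its log2 ratios were -0.53 and -0.40. The means were -0.44 ± 0.20 for Twist1 and -0.47 ± 0.09 for Twist2 (SD, n = 2; limma adjusted p 0.555 and 0.513). Twist1 minus Twist2 was -0.05 on replicate 1 and 0.10 on replicate 2, so the order of their ratios changed between the arrays.

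Both ZEB genes lay above control in the female pools and close to it in the male pools. Zeb1 read 9889 in the female control and 12253 in the female cyclopamine pool, and 1834 and 1956 in the male pools (probe A_52_P546635). The ratios were 0.31 and 0.09, a mean of 0.20 ± 0.15 (SD, n = 2, adjusted p 0.821). Zeb2 had 3 probes. The brightest, A_52_P596008 at mm9 chr2:44842774-44842833, read 10688 and 15513 in the female pools and 3347 and 3386 in the male pools, where the spots of the channels overlapped. Its ratios of 0.54 and 0.02 gave a mean of 0.28 ± 0.37 (SD, n = 2, adjusted p 0.740). The next probe, A_52_P526372 at mm9 chr2:44840038-44840097, had ratios of 0.60 and -0.05, so both probes had the larger ratio in the female pools. The last, A_55_P2119388 at mm9 chr2:44965914-44965973, was well above background in 2 of 4 channels and was left out of the test.

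Prrx2 lay below control on both arrays and Prrx1 did not share that pattern. Prrx2 read 5306 in the female control and 3761 in the female cyclopamine pool, and 662 and 568 in the male pools (probe A_55_P2417569, mm9 chr2:30736678-30736737). Its ratios were -0.50 and -0.22, with a mean of -0.36 ± 0.20 (SD, n = 2, adjusted p 0.656). Prrx1 had 2 probes that the array annotation assigns to different transcripts. The brighter, A_55_P2131920 at mm9 chr1:165175375-165175434, read 5508 and 7109 in the female pools and 1354 and 1269 in the male pools, and the spots overlapped in the male pools. Its ratios were 0.37 and -0.09, a mean of 0.14 ± 0.33 (SD, n = 2, adjusted p 0.889). The other probe, A_55_P2131915 at mm9 chr1:165185408-165185467, read 1626 and 1753 in the female and 407 and 324 in the male pools. Its ratios of 0.11 and -0.33 had opposite signs too, and the signs of the mean differed between the probes, at 0.14 and -0.11. Any probe with opposite signs after turning for the dye swap has 1 sign when read as red over green. This held for both Prrx1 probes by construction, with 0.37 and 0.09 for the brighter probe and 0.11 and 0.33 for the other. It therefore tells nothing further of Prrx1.

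**Figure D2:**
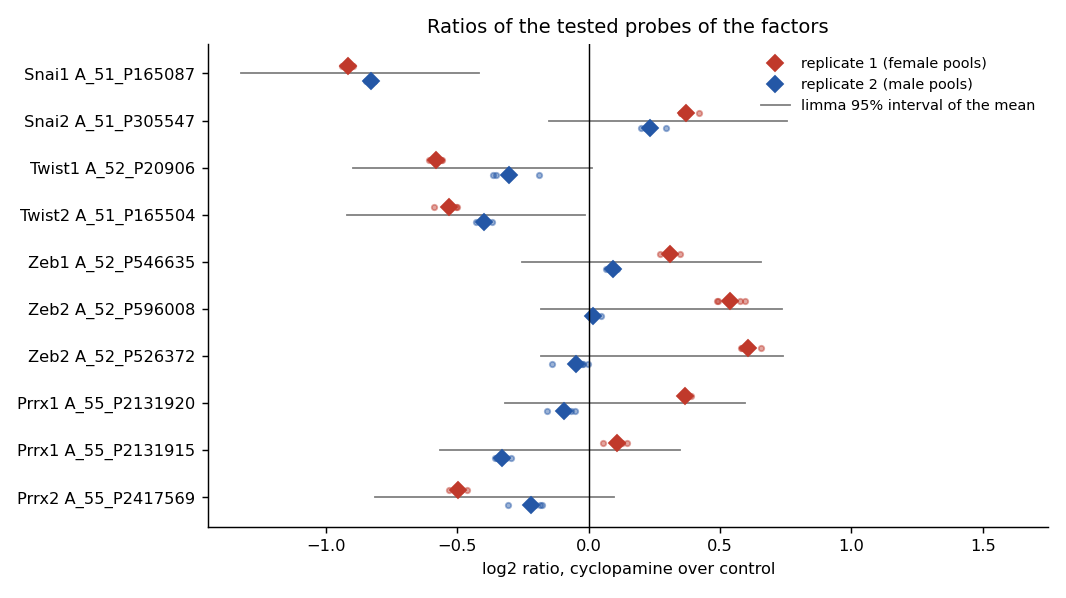
Log2 ratio, cyclopamine over control, of the 10 tested probes of the 8 factors. Diamonds are the ratios of replicate 1 and replicate 2, dots the single spots, and grey lines the 95% interval of the mean from limma. The interval of Snai1 runs from -1.33 to -0.42, and each Prrx1 probe has its 2 ratios on opposite sides of 0.

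In order of the mean ratio the factors ran from Snai1 (-0.87) over Twist2 (-0.47), Twist1 (-0.44) and Prrx2 (-0.36) to Prrx1 (0.14), Zeb1 (0.20), Zeb2 (0.28) and Snai2 (0.30). Neighbours within either run of 3 or 4 genes after Snai1 differed by less than the SD of at least 1 of them. On replicate 2 alone the order of the higher group changed to Snai2 (0.23), Zeb1 (0.09), Zeb2 (0.02) and Prrx1 (-0.09). Of all tested genes, 0.792% had a lower mean ratio than Snai1, 4.68% than Twist2, 5.29% than Twist1 and 9.50% than Prrx2. At the upper end, 87.5% had a lower mean ratio than Snai2 and 85.5% than Zeb2.

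**Figure D3:**
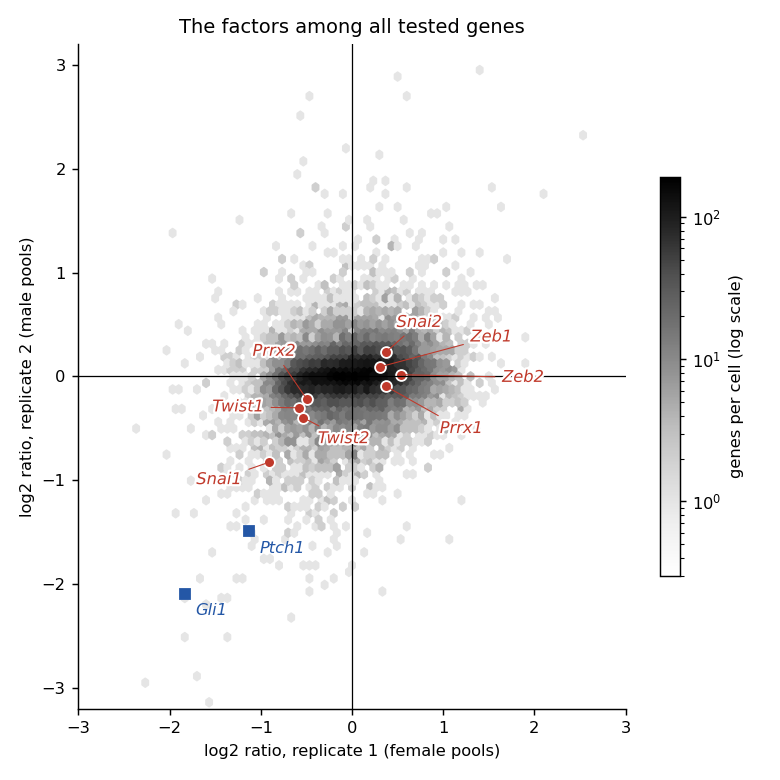
Log2 ratio of replicate 1 (female pools, x axis) against replicate 2 (male pools, y axis) for the 18441 tested genes, with grey cells shaded by the number of genes on a log scale and genes beyond the axes not drawn. Red points are the 8 factors and blue squares Ptch1 and Gli1. Snai1 lies at -0.92 and -0.83, between the SHH targets and the group of Twist1, Twist2 and Prrx2.

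Genomic gene length moved with the ratios of replicate 1 and differs widely among the factors. Across 16017 tested genes with a RefSeq length, the Spearman correlation of ratio and length was 0.44 on replicate 1 and 0.03 on replicate 2; genes of 1 array share its pools and are not independent. The 2413 genes shorter than 5 kb had a median ratio of -0.29 on replicate 1, and the 2065 genes longer than 100 kb had 0.31. On replicate 2 these medians were -0.05 and -0.04. Snai1 (4620 bp), Snai2 (3544 bp) and Twist1 (2161 bp) are short, and Zeb1 (184142 bp) and Zeb2 (133931 bp) are long. The trend at the length of Snai1 was -0.22 on replicate 1, and with it removed Snai1 had ratios of -0.68 and -0.80, a mean of -0.74 with an adjusted p of 0.0493. Snai2, at nearly that length, moved further up, to 0.64 and 0.26. Zeb1 was left at 0.01 on replicate 1, from 0.31, and Zeb2 at 0.24, from 0.54. Twist1 stood at -0.26 on both arrays, and Twist2, of 46574 bp, went from -0.53 to -0.70 on replicate 1. The part of gene length in these ratios was not tested further.

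**Figure D4:**
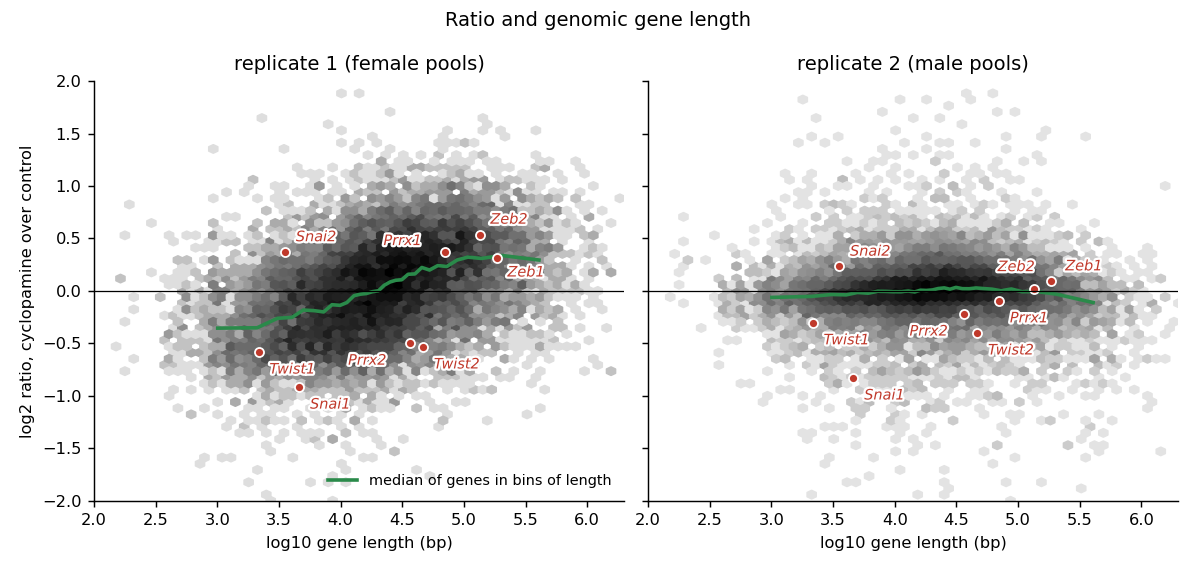
Log2 ratio, cyclopamine over control, against log10 of the genomic gene length in bp on each array. Grey cells are tested genes shaded by number on a log scale, with genes beyond the axes not drawn, the green line is the median of genes in bins of length and red points are the 8 factors. The median rises with length on replicate 1 and hardly on replicate 2, and Snai1 lies below the line on both arrays while Snai2 lies above it.

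The promoters of the factors that lay below control on both arrays are shown so that their letters can be set beside that shared direction. RefSeq windows (build GRCm38.p6, 250 bases before to 50 after the start) were held for 6 of the 8 factors. They were searched on both strands for the GLI site GACCACCCA, the E-box CACCTG bound by SNAI and ZEB factors, and the forkhead site TGTTTAC, with matches printed in capitals.
Snai1 promoter, chr2:167537945-167538244, plus strand: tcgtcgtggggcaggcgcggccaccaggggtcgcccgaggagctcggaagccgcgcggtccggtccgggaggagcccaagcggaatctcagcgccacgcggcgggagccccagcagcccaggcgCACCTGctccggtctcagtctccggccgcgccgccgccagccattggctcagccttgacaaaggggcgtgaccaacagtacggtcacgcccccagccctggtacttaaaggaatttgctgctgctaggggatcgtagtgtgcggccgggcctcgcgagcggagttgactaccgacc
Twist1 promoter, chr12:33957421-33957720, plus strand: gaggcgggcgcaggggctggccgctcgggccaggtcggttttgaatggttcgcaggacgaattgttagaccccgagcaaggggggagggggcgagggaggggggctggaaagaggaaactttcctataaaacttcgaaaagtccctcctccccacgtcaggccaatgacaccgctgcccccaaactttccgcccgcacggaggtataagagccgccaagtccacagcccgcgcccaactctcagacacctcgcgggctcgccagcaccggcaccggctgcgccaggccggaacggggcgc
Twist2 promoter, chr1:91801211-91801510, plus strand: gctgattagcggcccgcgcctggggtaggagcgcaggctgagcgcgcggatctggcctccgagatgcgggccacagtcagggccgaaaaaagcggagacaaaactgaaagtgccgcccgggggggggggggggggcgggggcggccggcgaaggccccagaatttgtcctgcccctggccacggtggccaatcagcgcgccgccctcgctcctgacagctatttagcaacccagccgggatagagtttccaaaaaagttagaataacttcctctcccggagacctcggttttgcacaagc
Prrx2 promoter, chr2:30845117-30845416, plus strand: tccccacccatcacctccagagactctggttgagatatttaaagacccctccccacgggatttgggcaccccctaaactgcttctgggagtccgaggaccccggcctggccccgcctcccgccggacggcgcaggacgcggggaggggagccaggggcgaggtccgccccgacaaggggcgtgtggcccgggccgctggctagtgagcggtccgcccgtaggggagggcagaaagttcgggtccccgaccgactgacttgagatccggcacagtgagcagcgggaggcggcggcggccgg
The Snai1 window held 1 match, the E-box CACCTG starting at position -126 where the start site is 1. That E-box was in 20.2% of 32851 mouse promoter windows of this length. The windows of Twist1, Twist2 and Prrx2 held no match to any of the 3 motifs, and the Snai1 window none to the GLI or forkhead letters. The windows of Prrx1 and Zeb2, which were not lower on both arrays, held no match either, so the lack does not follow the direction. Matches to GACCACCCA stood in 0.253% and to TGTTTAC in 3.65% of all windows. All 4 printed windows were rich in G and C, with 70.0% for Snai1, 66.0% for Twist1, 64.7% for Twist2 and 70.3% for Prrx2, beside a median of 52.7%. Prrx1 had 47.7%, and the Zeb2 windows had 49.3% to 60.7%. Snai1 had 34 CpG pairs, more than 92.3% of windows. A match or its lack describes letters and says nothing of binding.

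Epithelial genes lay mostly above control, and whether the factors act on them here was not tested. Of 18 epithelial genes 13 were higher on both arrays, beside 29.1% of all tested genes, 5 were opposite and 0 were lower on both. Cdh1 is also among the 10 urothelial markers, whose medians were 0.14 on replicate 1 and 0.12 on replicate 2. Limma called 0 in either direction, and 2 had an unadjusted p under 0.05. The median ratio was 0.26 on replicate 1 and 0.27 on replicate 2. The highest mean was that of Grhl2, a factor that holds the epithelial state, with 3763 and 6745 in the female and 1117 and 1552 in the male pools, or ratios of 0.84 and 0.47 (adjusted p 0.196). The lowest was Crb3, a polarity gene, at -0.55 and 0.26. Cdh1 read 16687 and 21119 in the female pools and 4391 and 5072 in the male pools, a mean of 0.27 ± 0.09 (SD, n = 2, adjusted p 0.740).

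Mesenchymal genes went apart by array. Of 17, 5 were higher on both and 1 was lower on both, while 11 were opposite, with medians of 0.61 on replicate 1 and -0.02 on replicate 2. Lox, which crosslinks collagen and elastin, was the 1 that limma called higher, from 5121 to 13058 in the female and from 1407 to 2240 in the male pools. Its ratios were 1.35 and 0.67 (adjusted p 0.00969). The lowest was S100a4, a calcium-binding protein of fibroblasts, at -0.68 and -0.23 (adjusted p 0.539).

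Among factors that work with the TWIST proteins, the inhibitors of bHLH dimers, Id1, Id2, Id3 and Id4, lay below control on both arrays. Of 11 bHLH and ID genes 6 were lower on both arrays, 2 higher on both and 3 opposite. Limma called none, and 5 had an unadjusted p under 0.05. Medians were -0.22 and -0.29. Id1, the lowest in the mean, read 20036 and 10646 in the female and 3773 and 2795 in the male pools, with ratios of -0.91 and -0.43 (adjusted p 0.182). Msc, a bHLH repressor, was highest at 0.37 and 0.67 (adjusted p 0.416). Of 8 tested homeobox genes of mesenchyme 5 were lower on both and 0 higher on both, with none called by limma and none at an unadjusted p under 0.05. They ran in the mean from Msx1 (-0.31) to Dlx5 (-0.02).

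Other EMT factors did not share a direction: of 16 tested, 7 lay above control on both arrays, 4 below it on both and 5 changed sign, with none called and 1 at an unadjusted p under 0.05. Sox9, a factor of progenitors and cartilage, was lowest, at 1473 and 821 in the female and 385 and 276 in the male pools (ratios -0.84 and -0.48, adjusted p 0.192). Runx1 was highest at 0.61 and 0.26 (adjusted p 0.566). Of 11 genes of TGF-beta signaling, the best known inducer of SNAI and ZEB genes, none was called and none had an unadjusted p under 0.05. They ranged in the mean from Tgfb1 (-0.12) to Tgfb2 (0.46), with 5 higher on both arrays and 1 lower on both. Of 12 corepressor genes none was called or had an unadjusted p under 0.05, from Ezh2 (-0.14) to Ajuba (0.32). Of 10 genes acting on SNAI1 protein stability none was called or had an unadjusted p under 0.05, from Csnk1e (-0.20) to Gsk3b (0.32).

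SHH targets gave the scale against which these values can be read. Of 7, limma called 5 lower and 0 higher, with medians of -0.82 and -1.49. The called genes were Foxl1 (mean -2.61), Gli1, Ptch1, Hhip (-1.15) and Foxf1 (-0.98). Hhip was uneven between the arrays, at -0.31 and -1.99. Snai1 lay less far down than any of the 5 in the mean.

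**Figure D5:**
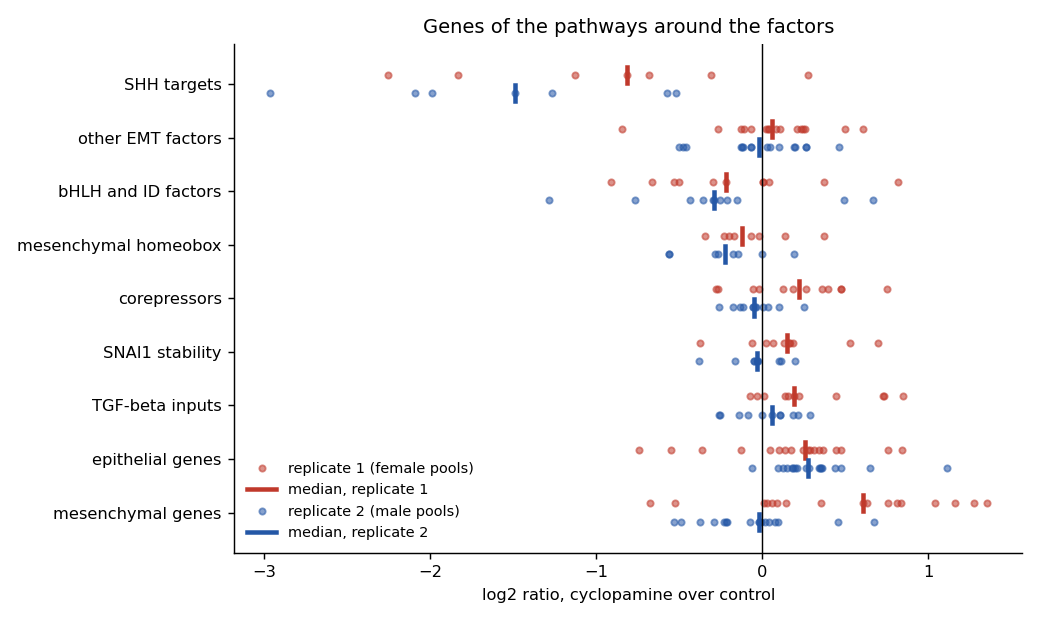
Log2 ratio, cyclopamine over control, of the tested genes in 9 lists. Dots are genes on replicate 1 (red) and replicate 2 (blue), and bars the median of each array. SHH targets lie lowest, epithelial genes lie at medians of 0.26 and 0.27, and mesenchymal genes at 0.61 and -0.02.

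By the distance between their pairs of log2 ratios, the tested genes most like Snai1 over the 2 arrays were Gnao1 (0.05), Gm13446 (0.08), Optc (0.08), Necab2 (0.09) and Npy (0.09). Gnao1 encodes a G protein alpha subunit, Optc a small leucine-rich proteoglycan, Necab2 a neuronal calcium-binding protein and Npy the neuropeptide Y. Gnao1 read 3150 and 1639 in the female and 348 and 203 in the male pools, with ratios of -0.94 and -0.78. Within a distance of 0.2 of Snai1 lay 36 genes. No other factor of the 8 was close, since the next, Twist2, was higher than Snai1 by more than the SD of either.

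Summed levels of cell type markers differed between the pools, and in bulk RNA fewer cells of a type and less RNA per cell cannot be told apart. The 10 urothelial markers were all above background, 6 higher on both arrays and none called by limma (1 at an unadjusted p under 0.05), and their summed intensity with cyclopamine was 1.08 and 1.07 times control. The 9 fibroblast markers summed to 1.39 and 0.841 times control, from 262503 to 365525 in the female and from 99742 to 83902 in the male pools. Of these 9, 3 lay below control on both arrays, 2 above it and 4 changed sign, with none called and 3 at an unadjusted p under 0.05. The study filter, which 0.649% of genes bright enough passed as lower, took 2 of the 9 as lower and 0 as higher. These were Aldh1a2 (-0.62 and -0.65) and Thy1 (-0.83 and -0.79), so the sum does not speak for each marker. The 8 smooth muscle markers summed to 0.924 and 0.620 times control, from 355480 to 328566 and from 93821 to 58165, with 5 lower on both and 1 called lower, Actg2 (-0.90). The 7 endothelial markers summed to 1.36 and 0.886, the 8 macrophage markers to 0.936 and 0.918 and the 7 tested glial and neuronal markers to 0.793 and 1.18, with none called in any of these lists and 2 genes, both glial, at an unadjusted p under 0.05. Of 5 fat cell markers 4 were tested and all 4 were lower on both arrays, summing to 0.824 and 0.837, with Cidec called lower, although it was not well above background in the male cyclopamine pool. Of 7 kidney markers 2 were tested, and Umod, Slc34a1, Slc12a1 and Nphs1 were among those not well above background, like Lep of fat. The part of these cell types in the ratios of the 8 factors was not tested.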

How the data were processed

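RNA of ureter explants was hybridised by the authors on 2 two-colour Agilent mouse arrays, 1 per sex, with the dyes exchanged. The deposited processed intensity of each channel was background-subtracted and dye-balanced by the Agilent scanner software Feature Extraction (version 12.2.0.7 in the headers of the files, 10.7.3.1 per the labels); array annotation was of build mm9. The deposited log10 ratio (red over green) served to find the direction of the authors' series table, a score holding signed fold changes with 1 decimal. How that table was made is not given in the sources used here.

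Left out were control spots and those flagged as outliers (2.89% and 3.15%), and the up to 4 spots of a probe were averaged as log2 values. A probe was tested if at least a share of 0.5 of its spots was well above background in 1 group on both arrays. Log2 ratios were turned for the dye swap and fitted with limma 3.58.1 in R 4.3.3 (no intercept, 1 residual degree of freedom, prior of 51.9), with Benjamini-Hochberg adjustment over 25975 probes and a limit of 0.05. The same code was tested on simulated data, where it recovered nearly all changed probes but also called more unchanged ones than the limit allows. The number of arrays limits the precision, and spot spread is technical. Symbols and lengths came from RefSeq, where 28328 probes matched by accession, and promoters from RefSeq GRCm38.p6.

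Named were all 8 factors, Ptch1 and Gli1, the called, lowest and highest genes of each list, undetected or called markers, and the 5 genes nearest to Snai1. A few genes that this rule names are not reported here. Cdh1, Snai3, Aldh1a2, Thy1 and Hhip's single ratios were added after their values were seen. The factors and lists were chosen with earlier results of these data known. Alternatives were normexp with an offset of 50, the series table, other filters and priors, removal of trends, separate channels and leaving out an array.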

Additional observations from a re-analysis of the deposited data

Results flagged for a closer look

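The 9 fibroblast markers had a median log2 ratio of 0.42 in the female pools of replicate 1 and of -0.31 in the male pools of replicate 2, a female minus male difference of 0.73, with each side at least 0.2 from 0. Col1a1, a collagen gene, stood at 0.73 and -0.48, and Thy1 at -0.83 and -0.79. With 1 array for either sex this difference was not tested, and sex, dye orientation and replicate number cannot be told apart. A higher median on replicate 1 was not particular to fibroblast markers. Endothelial markers had 0.54 and -0.10 and mesenchymal genes 0.61 and -0.02, whereas urothelial markers had 0.14 and 0.12. None of the 10 tested probes of the 8 factors had ratios of opposite sign that both reached 0.2. The Zeb2 probe left out as dim did, at -0.46 and 0.39, and the second Prrx1 probe stood at 0.11 and -0.33.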

How the results depend on the processing

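The direction of the mean ratio of each of the 8 factors was the same in all 10 alternative settings that use both arrays. Without replicate 1 the ratio of Prrx1, not called in any setting, changed sign (-0.09); the other 7 kept theirs without either array. Snai1 ranged from -0.89 to -0.74 and was called lower in 6 of them, with adjusted p from 0.0155 to 1.00. It missed the limit with normexp (-0.86), the series table (-0.89), no filter on dim probes (-0.87) and 4 channels without a replicate block (-0.88), where the count of factors called lower was 0 instead of 1. None of the other 7 was called in any setting. Probes called lower and higher numbered 200 and 118 as reported, 42 and 12 with normexp, 0 and 0 with the series table (818 and 1051 at an unadjusted p under 0.05) and 2 and 1 with the 4 channels; without the filter 216 were higher. The study filter as applied here, to the brightest probe per gene and on both arrays, took 85 genes as lower and 28 as higher. The study's own list of lower genes was longer, so these are not its counts. It took 54 as lower with an intensity limit of 200, and 20 and 3 at 2-fold, where Snai1 was not among them. Without 1 array it took 226 to 1599 as lower and 78 to 1336 as higher, and Snai1 was among the lower genes either way. The cause of these shifts was not tested. Twist1, Twist2, Prrx2 and Snai1 were lower on both arrays in all 9 of the settings that give a ratio per array besides the reported one; Zeb2 was not higher on both with the series table or with the mean over its probes. Dim probes, such as the third of Zeb2, bound what the arrays can show.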
